A study of Mus musculus with 6 samples.

Results

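Glycolysis is represented here by 10 genes that were chosen by name. They encode 2 glucose transporters (Slc2a1 and Slc2a3), 2 hexokinases (Hk1 and Hk2) and 6 enzymes of later steps (Pfkl, Aldoa, Pgk1, Eno1, Pkm and Ldha). All 10 were found, each as a single row, among the 34245 genes of the expression table. RNA-seq was performed on 3 independent Dnmt3b+/- peripheral T-cell lymphomas (PTCL), taken from lymph nodes of FVB mice in which a conventional knockout inactivates 1 Dnmt3b allele in every cell. The tumors, here called tumor 1, tumor 2 and tumor 3, form 1 group. Healthy T-cells and tumors of other genotypes were not analysed here, so the values do not say whether a gene is higher or lower than in normal T-cells, and no test between groups could be made. The depth of the libraries of tumors 1, 2 and 3, computed back from the deposited FPKM, was 30726570, 18969988 and 20770928 reads.

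Glycolysis splits glucose into pyruvate in the cytosol and yields ATP and NADH. Glucose enters through facilitative transporters, is trapped by hexokinase and is committed to the pathway by phosphofructokinase, and lactate dehydrogenase can turn the resulting pyruvate into lactate. Activated T-cells and many lymphomas are known to run this pathway at a high rate even where oxygen is present, and most of its steps can be carried out by several isozymes encoded by separate genes.

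The levels are given in FPKM, reads on a gene corrected for exon length and for library depth. Each of the 10 listed T-cell markers was above 1 FPKM in every tumor, and the most abundant was Cd8b1, a chain of the CD8 co-receptor, with 435, 166 and 443 FPKM in tumors 1, 2 and 3. Against this background the 10 glycolysis genes covered a wide range. Their median was 31.5 FPKM as a mean of the tumors, beside 5.70 FPKM for the 11191 genes with a mean of at least 1 FPKM. All 10 had a mean of at least 1 FPKM, and 9 were above 1 FPKM in every tumor, the exception being Hk2 in tumor 3. Together they held 0.221%, 0.345% and 0.207% of the summed FPKM of tumors 1, 2 and 3.

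**Figure D1:**
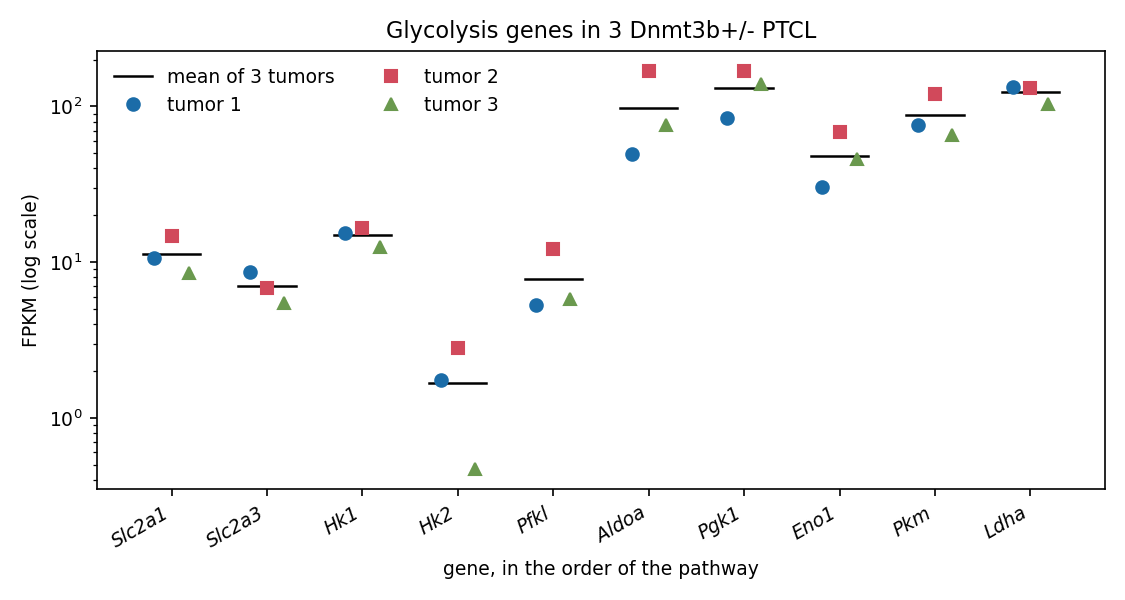
FPKM of the 10 glycolysis genes (log axis) in the order of the pathway, with a symbol for each of the 3 tumors and a line at their mean. Tumor 2 is the highest for 8 genes (7 or 9 with another scaling), and the means run from 1.68 FPKM for Hk2 to 131 FPKM for Pgk1.

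Slc2a1 (ENSMUSG00000028645, chromosome 4 of mm10 from 119108711 to 119137983) encodes GLUT1, the transporter that brings glucose into most dividing cells. It had 10.6, 14.7 and 8.47 FPKM in tumors 1, 2 and 3, with a mean of 11.3 ± 3.15 (SD, n = 3). Slc2a3 (ENSMUSG00000003153, chromosome 6 from 122727809 to 122801640) encodes the related transporter GLUT3, which has a high affinity for glucose. Its values were 8.60, 6.87 and 5.50 FPKM in tumors 1, 2 and 3, with a mean of 6.99 ± 1.55 (SD, n = 3). Slc2a1 was thus highest in tumor 2 and Slc2a3 in tumor 1. Among 10 transporters of the family, Slc2a1 made up 48.0% ± 7.32 (SD, n = 3) of the FPKM, and Slc2a3 made up 33.5%, 26.2% and 30.3% in tumors 1, 2 and 3. The order of these transporters depends on the exon length by which reads are divided. The deposited FPKM uses all annotated exons of a gene merged, which is 7245 bases for Slc2a3 against 3959 bases in its principal transcript, and 3506 against 3260 bases for Slc2a1. Divided by the principal transcript, an alternative chosen after the data were seen, the share of Slc2a1 was 37.6% and that of Slc2a3 39.7%. Of the 8 other transporters listed, 3 had a mean of at least 1 FPKM, led by Slc2a9 with 2.03 FPKM and Slc2a6 with 1.45 FPKM. Slc2a2, the transporter of liver and pancreatic beta cells, had no read in any tumor.

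Hexokinase phosphorylates glucose and so keeps it in the cell. Hk1 (ENSMUSG00000037012, chromosome 10 from 62268855 to 62379908), the isozyme found in most tissues, had 15.4, 16.5 and 12.6 FPKM in tumors 1, 2 and 3, a mean of 14.9 ± 2.04 (SD, n = 3). It varied little, with a highest value 1.31 times the lowest. Hk2 (ENSMUSG00000000628, chromosome 6 from 82725025 to 82774454), an inducible isozyme bound to mitochondria, had 1.75, 2.82 and 0.468 FPKM in tumors 1, 2 and 3. Behind them stand 321, 319 and 58 reads, computed back from FPKM, exon length and depth. The exact 95% Poisson interval, which covers counting error only, runs from 1.56 to 1.95 FPKM for tumor 1, from 2.52 to 3.14 for tumor 2 and from 0.355 to 0.605 for tumor 3. The intervals did not overlap, so the 3 libraries differed in Hk2 by more than counting error. The mean of 1.68 ± 1.18 FPKM (SD, n = 3) lay within the interval of tumor 1 but outside those of tumors 2 and 3. Without tumor 2 the mean of Hk2 was 1.11 FPKM. Hk2 was the lowest of the 10 genes and the most variable, with a highest value 6.02 times the lowest.

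The ratio of Hk1 to Hk2 was 8.83, 5.87 and 26.9 in tumors 1, 2 and 3, so Hk1 exceeded Hk2 in each tumor. Hk3, a hexokinase typical of myeloid cells, had 4.17, 1.25 and 2.54 FPKM and was above Hk2 in tumors 1 and 3 but below it in tumor 2. Hk1 made up 77.7% ± 4.73 (SD, n = 3) of the hexokinase FPKM, Hk3 13.9% ± 7.03 and Hk2 8.28% ± 5.33. From reads not divided by length, the mean shares were nearly equal, with 6.79% for Hk3 and 6.44% for Hk2. The single tumors were not, since Hk3 had 472, 87 and 194 reads in tumors 1, 2 and 3, against 321, 319 and 58 of Hk2. With principal lengths Hk2 held 4.56%. Hkdc1 had no read in any tumor, where 3 reads would have given at most 0.0308 FPKM.

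Phosphofructokinase catalyses the committed step. Pfkl (ENSMUSG00000020277, chromosome 10 from 77986947 to 78010083), the liver type subunit, had 5.30, 12.2 and 5.78 FPKM in tumors 1, 2 and 3, with a mean of 7.75 ± 3.83 (SD, n = 3). Tumors 1 and 3 were close to each other and tumor 2 stood above both. Pfkl was not the main subunit. The platelet type, Pfkp, had a mean of 17.1 ± 5.56 FPKM (SD, n = 3) and made up 59.8% ± 6.94 (SD, n = 3) of the step, against 26.0% ± 2.13 for Pfkl and 14.2% ± 4.87 for the muscle type, Pfkm, which held 4.70% of the reads. Read numbers of Pfkm did not come out whole with the annotation used, so its exon length and the shares of the step are uncertain. Pfkp was above Pfkl in every tumor, by 2.27, 1.90 and 2.80 times in tumors 1, 2 and 3. The merged exons of Pfkp span 13401 bases against 4145 in the principal transcript, and with principal lengths the share of Pfkl was 18.2%. Pfkfb3 and Tigar, which raise and lower the activator fructose-2,6-bisphosphate, were the most abundant of 5 listed enzymes of that molecule, with means of 7.73 and 4.43 FPKM.

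**Figure D2:**
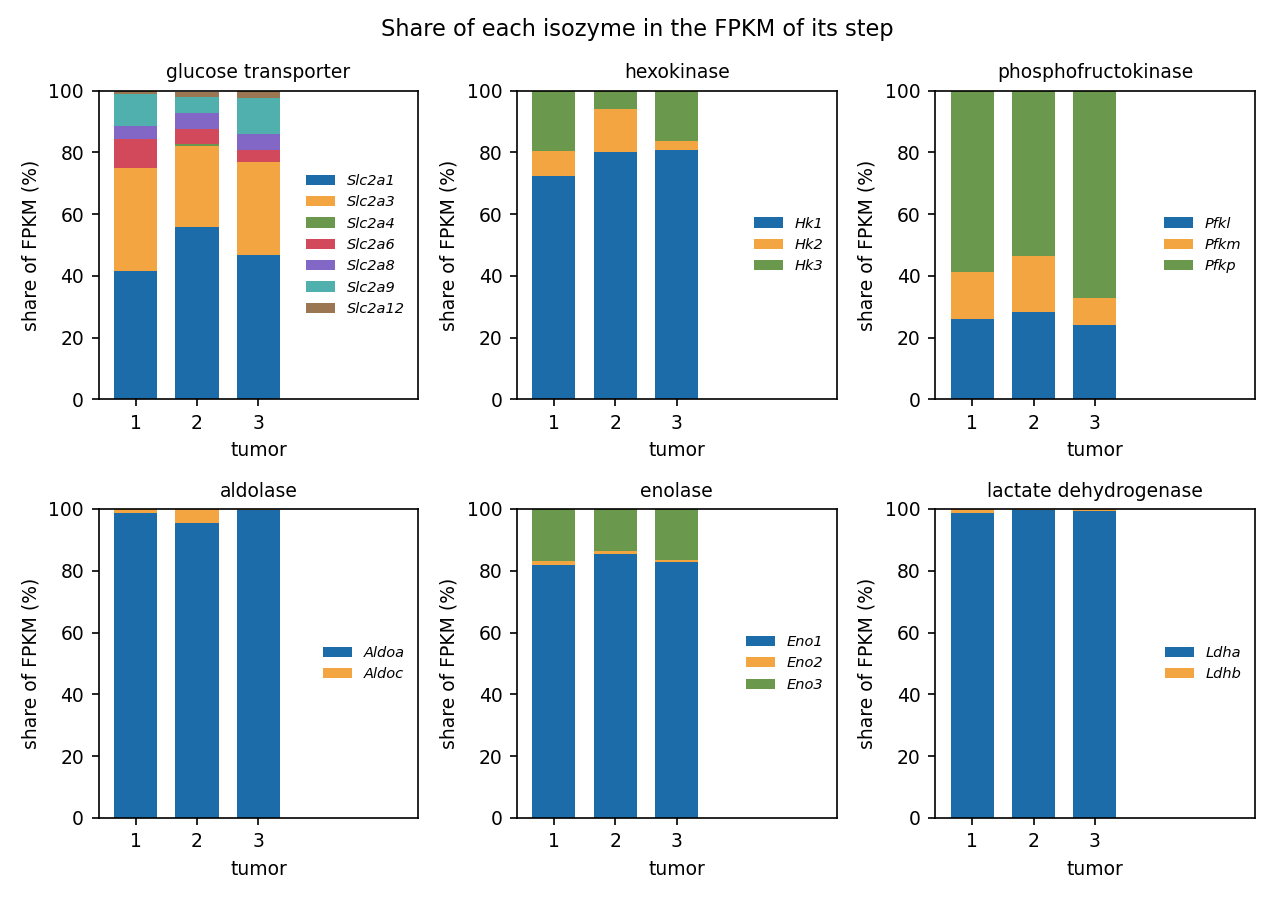
Share of each isozyme in the FPKM of its step (bars from 0 to 100%), for each of the 3 tumors, without isozymes whose mean share was under 0.2%. Pfkp, not Pfkl, is the largest part of phosphofructokinase in each tumor, while Aldoa and Ldha fill at least 95.6% and 98.6% of their steps.

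Aldoa (ENSMUSG00000030695, chromosome 7 from 126795234 to 126809108) encodes the aldolase of muscle and most proliferating cells, which cleaves the 6-carbon sugar. It had 49.8, 169.8 and 75.5 FPKM in tumors 1, 2 and 3, with a mean of 98.4 ± 63.2 (SD, n = 3). The SD was 64.2% of the mean, and tumor 2 was 3.41 times tumor 1 and 2.25 times tumor 3. Without tumor 2 the mean was 62.7 FPKM, below the 70.7 FPKM of Pkm, so the place of Aldoa before Pkm rests on that library. Read numbers of Aldoa did not come out whole with the annotation used, so its exon length is uncertain, which shifts its level in all 3 tumors alike and leaves its ratios between tumors as they are. Aldoa held 98.8%, 95.6% and 99.6% of the aldolase FPKM in tumors 1, 2 and 3. Aldoc, the brain isozyme, had 0.588, 7.79 and 0.310 FPKM, so that tumor 2 also stood out for this minor isozyme.

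Pgk1 (ENSMUSG00000062070, chromosome X from 106187100 to 106203699) encodes phosphoglycerate kinase, which makes the first ATP of the pathway. Its values were 84.7, 169 and 139 FPKM in tumors 1, 2 and 3, with a mean of 131 ± 42.9 (SD, n = 3). Here tumors 2 and 3 were close and tumor 1 was low. Pgk2, the copy used in sperm, had no read. Of windows of 100 bases within the exons of Pgk1, 55.2% occur again elsewhere in the genome. Reads that lie wholly in repeated sequence cannot be placed uniquely, and the deposited values were made from reads above a mapping quality limit. How many reads this touched was not tested, so the level of Pgk1 is given as uncertain.

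Eno1 (ENSMUSG00000063524, chromosome 4 from 150236721 to 150248879) encodes the enolase of most tissues. It had 30.2, 68.4 and 46.0 FPKM in tumors 1, 2 and 3, a mean of 48.2 ± 19.2 (SD, n = 3). As for Pgk1, tumor 1 was lowest. Eno1b, an annotated near-identical copy with 83.0% of its windows repeated, had 14.4, 47.6 and 33.7 FPKM, and reads of the 2 genes may be exchanged. Of the windows of Eno1 itself 10.8% were repeated. Eno1 made up 83.5% ± 1.80 (SD, n = 3) of the enolase FPKM beside Eno3, the muscle isozyme with 15.6% ± 1.87, and Eno2, the neuronal isozyme with 0.893% ± 0.448. With Eno1b added to Eno1 the share was 89.1%.

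Pkm (ENSMUSG00000032294, chromosome 9 from 59656368 to 59679375) encodes the muscle type pyruvate kinase, which makes pyruvate. Its 2 splice forms were not separated, since FPKM was deposited per gene. Pkm had 75.8, 121 and 65.6 FPKM in tumors 1, 2 and 3, with a mean of 87.6 ± 29.7 (SD, n = 3). Tumor 2 was 1.60 times tumor 1 and 1.85 times tumor 3. Pklr, the form of liver and red cells, had 2 reads in tumor 2 and none in the others.

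Ldha (ENSMUSG00000063229, chromosome 7 from 46841475 to 46855627) encodes the lactate dehydrogenase subunit that favours the formation of lactate. It had 134, 132 and 104 FPKM in tumors 1, 2 and 3, a mean of 123 ± 16.7 (SD, n = 3). Its highest value was 1.29 times its lowest, the smallest such ratio among the 10 genes in the FPKM as deposited. Ldhb, the subunit that favours the reverse reaction, had 1.84, 0.537 and 0.675 FPKM, from 89, 16 and 22 reads. Ldha exceeded Ldhb by 72.8, 245 and 154 times in tumors 1, 2 and 3 and made up 99.2% ± 0.494 (SD, n = 3) of the step.

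Ordered by mean FPKM, Pgk1 came before Ldha, Aldoa, Pkm, Eno1, Hk1, Slc2a1, Pfkl, Slc2a3 and Hk2. Their places among all 34199 gene symbols ran from 187 for Pgk1, within the top 0.547%, to 9898 for Hk2. The values of neighbours in this order overlapped over the tumors except between Eno1 and Hk1 and between Slc2a3 and Hk2. The enzymes of the later steps, from Aldoa to Ldha, were therefore set apart from the transporters, the hexokinases and Pfkl, while neighbours within each of these sets, other than Slc2a3 and Hk2, were not set apart by their values. Pkm was above Eno1, Hk1 above Slc2a1 and Slc2a1 above Pfkl in 3 of 3 tumors, and Slc2a3 was above Hk2 in all. Per principal transcript, Ldha came first with a level of 231, followed by Aldoa with 189.6, Pkm with 180.1, Pgk1 with 161 and Eno1 with 128. Hk1, the next, had 32.9 on the same scale, so the gap below Eno1 was found with either length. Below it the order turned, with Pfkl at 13.9 and Slc2a3 at 12.8 above Slc2a1 at 12.1, so the place of Slc2a1 before Pfkl holds only for merged exons.

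**Figure D3:**
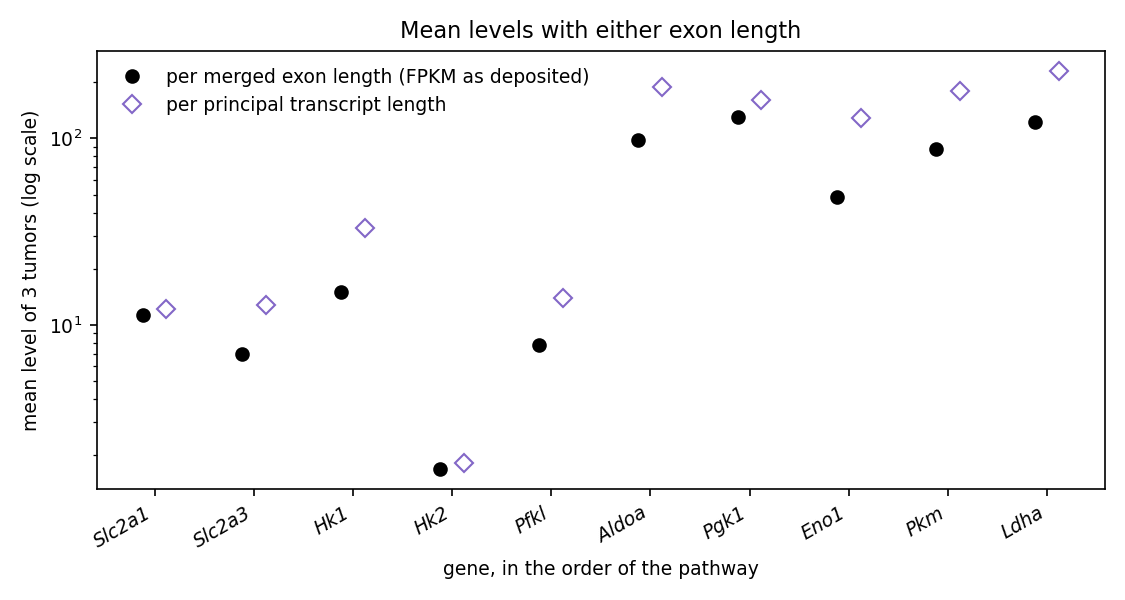
Mean level of the 10 glycolysis genes over the 3 tumors (log axis), with reads divided by the merged exons of the gene (filled circles, the deposited FPKM) or by its principal transcript (open diamonds). Eno1 moves from 48.2 to 128 and keeps its place, while Pgk1, from 131 to 161, and Slc2a1, from 11.3 to 12.1, move less than others and lose places.

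Tumor 2 was the highest of the 3 tumors for 8 of the 10 genes, all but Slc2a3 and Ldha, while 33.7% of all genes with a mean of at least 1 FPKM were highest in tumor 2, and the count was 7 (30.7% of all genes) when each tumor was rescaled to the same sum, where Hk1 was highest in tumor 1, and 9 (37.3%) with median-of-ratios factors, where Ldha was highest in tumor 2. None of the 10 was lowest in tumor 2 as deposited, against 4284 of 11191 genes. Each of these comparisons sets 1 library against another, so no p-value is given, and whether the tumors differ in the glycolysis of their lymphoma cells cannot be read from them. In bulk samples, fewer cells of a type and less RNA per cell cannot be told apart.

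At a ratio of at least 1.5, tumor 2 was above tumor 1 for 6 of the 10 genes (Hk2, Pfkl, Aldoa, Pgk1, Eno1 and Pkm), against 18.7% of all genes. Tumor 1 was above tumor 2 at this ratio for 0 of the 10, against 30.4%. The count of 6 depends on the scaling. It was 4, against 15.2% of all genes, when each tumor was rescaled to the same sum. With median-of-ratios factors it was 7, against 23.7%. The libraries also differ in scale, in a direction that depends on the measure. The summed FPKM was higher in tumor 2 than in tumor 1. The median ratio of tumor 2 to tumor 1 over all genes went the other way, at 0.885, or -0.18 on the log2 scale. Relative to that median the ratio was 3.85 for Aldoa, 2.59 for Pfkl, 2.56 for Eno1 and 2.26 for Pgk1, and the lowest was 0.903 for Slc2a3. For Ldha the deposited ratio of 0.980 turned to 1.11 with this scaling, so its direction depends on it. Aldoa had a higher ratio of tumor 2 to tumor 1 than 95.8% of all genes, Pfkl than 92.3% and Eno1 than 92.2%.

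Tumor 2 was at least 1.5 times tumor 3 for 5 of the 10 genes (Slc2a1, Hk2, Pfkl, Aldoa and Pkm), against 20.7% of all genes, and tumor 3 was above tumor 2 for 0 of the 10, against 13.4%. Hk2 had the highest ratio of tumor 2 to tumor 3, 6.02, and relative to the median of all genes it was 5.78. Eno1, at 1.49, lay just under the limit. Between tumors 1 and 3 the genes went both ways in the FPKM as deposited. Tumor 1 was at least 1.5 times tumor 3 for Slc2a3 and Hk2, 2 of the 10 against 26.9% of all genes, and tumor 3 was at least 1.5 times tumor 1 for Aldoa, Pgk1 and Eno1, 3 of the 10 against 9.41%. The last of these counts was 0 when each tumor was rescaled to the same sum, where the share of all genes was 5.87%. With that scaling, tumor 1 was at least 1.5 times tumor 3 for 3 of the 10, against 42.6% of all genes.

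**Figure D4:**
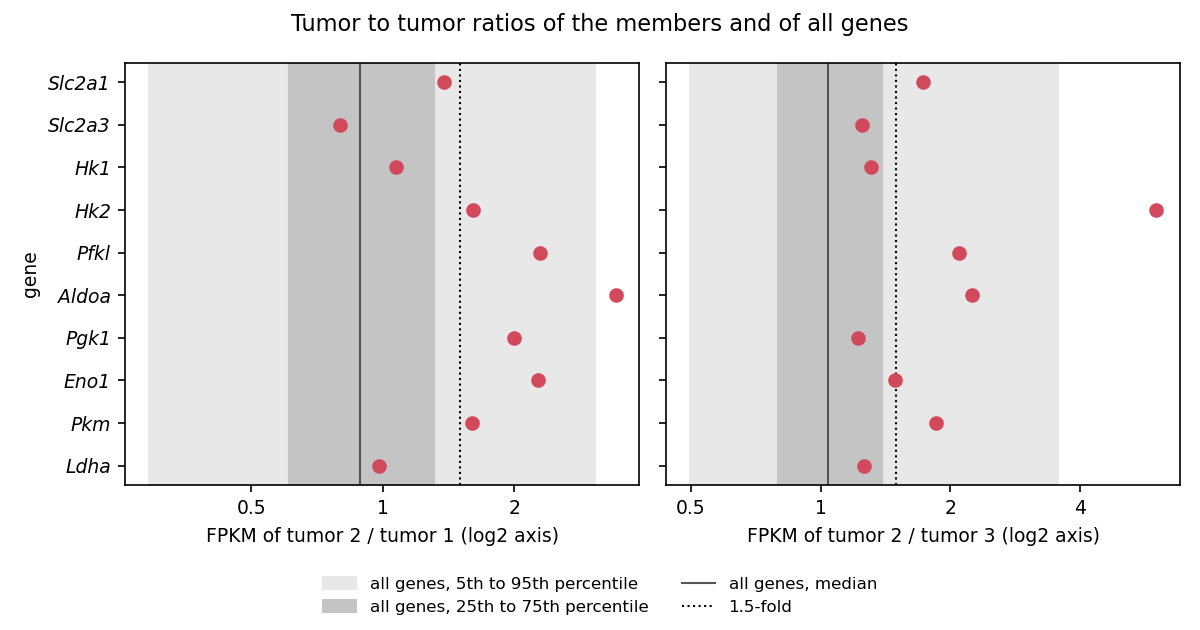
Ratio of FPKM between tumor 2 and tumor 1 (left) and between tumor 2 and tumor 3 (right) for the 10 glycolysis genes (points, log2 axis), beside 11191 genes with a mean of at least 1 FPKM, shown by their median (line), 25th to 75th percentile (dark band) and 5th to 95th percentile (light band). The dotted line marks a ratio of 1.5, which 6 genes reach on the left and 5 on the right.

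Over the 3 tumors the median ratio of the highest to the lowest value was 1.93 for the 10 genes and 1.68 for all genes with a mean of at least 1 FPKM. The ratio was at least 2 for 4 of the 10 (Hk2, Pfkl, Aldoa and Eno1), against 34.4% of all genes, a share close to theirs. Pgk1, at 2.00 after rounding, lay just under the limit. Without tumor 2, only Hk2 kept a ratio of at least 2, against 17.7% of all genes, and the median was 1.40 for the 10 and 1.35 for all. The median of the 10 was 1.61 without tumor 1, beside 1.32 for all genes, and 1.61 without tumor 3, beside 1.49. Any such value is at most that of all 3 tumors.

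The 4 steps without a member among the 10 genes were read from Gpi1, Tpi1, Gapdh and Pgam1. Gpi1, which isomerizes glucose-6-phosphate, had 44.3, 63.5 and 54.2 FPKM in tumors 1, 2 and 3. Tpi1, which interconverts the triose phosphates, had 25.7, 97.8 and 23.2 FPKM. Gapdh, which makes NADH, had 68.4, 150.4 and 94.0 FPKM. All 3 were highest in tumor 2, Tpi1 by the widest margin, and so was Pgam1, the mutase, with 54.4, 101 and 57.4 FPKM. Pgam1 and Gapdh have close copies in the genome, as 76.4% and 17.1% of their exon windows occur again. Of 21 other glycolysis enzymes listed, 13 had a mean of at least 1 FPKM, of which 9 were highest in tumor 2, against 33.7% of all genes. In this set of 13, tumor 2 was at least 1.5 times tumor 1 for 8 genes, against 18.7% of all genes, and tumor 1 at least 1.5 times tumor 2 for 3, against 30.4%.

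Lactate leaves the cell through monocarboxylate transporters, which need the chaperone Bsg. Slc16a1 (MCT1) had 27.3, 13.7 and 14.1 FPKM in tumors 1, 2 and 3. It exceeded Slc16a3 (MCT4) by 24.9, 2.77 and 31.1 times, so tumor 2 carried relatively more of the second transporter. Bsg had 64.6, 108 and 65.0 FPKM. Pyruvate can instead enter mitochondria, and of 13 genes of that route 12 had a mean of at least 1 FPKM, led by Pdha1 with 29.2 FPKM and Dld with 12.2 FPKM. For 1 of these 12, tumor 2 was at least 1.5 times tumor 1, against 18.7% of all genes, and for 2 the reverse held, against 30.4%. All 7 genes of the pentose phosphate pathway, which branches off after hexokinase, had a mean of at least 1 FPKM, with Taldo1 at 50.2 FPKM and Tkt at 30.7 FPKM, and for 5 of them tumor 2 was at least 1.5 times tumor 1, against 18.7% of all genes, and for 1 the reverse held, against 30.4%. Of 7 genes of gluconeogenesis, the reverse route, G6pc, Fbp1 and Fbp2 had no read, and the most abundant were G6pc3 with 7.80 FPKM and Pck2 with 1.51 FPKM.

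Hif1a and Myc encode transcription factors known to act on glycolysis genes. Hif1a had a mean of 18.6 ± 8.99 FPKM (SD, n = 3), with tumor 2 at 1.38 times tumor 1 and 2.96 times tumor 3, and Myc had 55.2, 38.0 and 30.4 FPKM in tumors 1, 2 and 3. Hif1a was highest in tumor 2, like most of the 10 genes, and Myc in tumor 1. Txnip, a brake on glucose uptake and the most abundant of 13 listed regulators, had 104, 65.6 and 149 FPKM and was lowest in tumor 2. Of the 13 regulators, 10 had a mean of at least 1 FPKM. For 0 of these 10, tumor 2 was at least 1.5 times tumor 1, against 18.7% of all genes. For 3 the reverse held, against 30.4%. All these values are transcript levels, and the activity of the factors was not measured.

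HIF factors bind DNA at the core ACGTG or GCGTG, and Myc binds CACGTG, which contains ACGTG on both strands. The letters were looked for on both strands in the 250 bases before each RefSeq gene start (GRCm38.p6), where 9 of the 10 genes, all but Slc2a3, had 16 such windows. ACGTG or GCGTG occurred in a window of each of the 9 genes, against 41.5% of 27025 genes with such windows. The 9 genes have more windows each than genes have in general, and by window the letters were in 13 of 16, against 38.6% of all 32851 windows. ACGTG alone was found for 6 of the 9 against 18.5% of all, and in 7 of the 16 windows against 16.6%, and CACGTG for 1, Ldha, against 6.86%. The windows of these genes are also rich in CG, with a median of 17.5 CG pairs against 6 over all windows, and the motifs contain CG, so the shares are not set against windows of the same composition. Stretches of sequence are shown for the 5 windows of 250 bases in which no exon is annotated, so that the letters can be seen outside exons. Those of Aldoa and Ldha lie within the annotated span of the gene, after another of its starts. All are read 5' to 3' on the strand of the gene, with ACGTG or GCGTG of either strand in capitals. Hk2 lies at chr6:82774455-82774704 (- strand), Aldoa at chr7:126799255-126799504 (- strand), Pgk1 at chrX:106186850-106187099 (+ strand), Eno1 at chr4:150236458-150236707 (+ strand) and Ldha at chr7:46846832-46847081 (+ strand).
Hk2: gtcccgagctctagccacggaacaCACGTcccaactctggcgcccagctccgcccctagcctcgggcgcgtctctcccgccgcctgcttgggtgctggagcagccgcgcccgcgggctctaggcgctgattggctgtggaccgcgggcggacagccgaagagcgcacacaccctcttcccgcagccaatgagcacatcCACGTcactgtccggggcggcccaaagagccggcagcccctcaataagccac
Aldoa: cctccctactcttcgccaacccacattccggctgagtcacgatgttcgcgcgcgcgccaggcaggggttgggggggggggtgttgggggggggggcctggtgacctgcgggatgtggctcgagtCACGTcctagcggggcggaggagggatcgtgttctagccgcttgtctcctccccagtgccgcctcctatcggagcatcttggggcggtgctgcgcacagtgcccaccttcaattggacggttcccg
Pgk1: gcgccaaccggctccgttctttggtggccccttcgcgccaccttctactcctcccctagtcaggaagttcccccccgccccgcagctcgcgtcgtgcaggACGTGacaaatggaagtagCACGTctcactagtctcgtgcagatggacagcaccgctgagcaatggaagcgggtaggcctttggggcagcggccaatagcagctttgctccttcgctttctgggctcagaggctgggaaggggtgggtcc
Eno1: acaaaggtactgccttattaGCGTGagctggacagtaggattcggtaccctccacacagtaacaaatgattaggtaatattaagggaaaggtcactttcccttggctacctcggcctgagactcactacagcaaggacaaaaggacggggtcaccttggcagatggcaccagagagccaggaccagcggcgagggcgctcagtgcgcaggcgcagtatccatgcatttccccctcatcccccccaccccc
Ldha: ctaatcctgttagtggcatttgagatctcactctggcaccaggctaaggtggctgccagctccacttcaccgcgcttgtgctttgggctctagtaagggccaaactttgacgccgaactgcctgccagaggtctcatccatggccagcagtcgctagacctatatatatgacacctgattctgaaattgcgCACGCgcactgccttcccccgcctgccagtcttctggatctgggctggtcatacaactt
ACGTG occurs 2 times in the stretches of Hk2 and Pgk1 and 1 time in that of Aldoa, and GCGTG 1 time in those of Eno1 and Ldha. Aldoa, Eno1 and Ldha have other annotated starts, whose windows overlap an exon and are not printed. Of these, 1 of Ldha holds ACGTG 5 times, where each of its 2 CACGTG is counted on both strands. Another 2 windows, of Eno1, overlap each other and hold GCGTG 2 times each. Of 2 unprinted windows of Aldoa, 1 overlaps the printed stretch and holds the same ACGTG, and the other holds none. A match is only a description of the letters, and binding was not measured.

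Other cell types also differed between the tumors. All 8 pancreatic acinar markers were highest in tumor 2, against 33.7% of all genes. Their summed level in tumor 2 was 440.3 FPKM, beside 87.0 in tumor 1 and 0.657 in tumor 3. The most abundant was Ctrb1, which encodes a digestive enzyme, with 33.9 and 198 FPKM in tumors 1 and 2, and neither it nor Cpa1 had a read in tumor 3. Tumor 2 was also highest for the summed level of 6 fibroblast markers, with 11.4, 41.7 and 0.362 FPKM in tumors 1, 2 and 3, led by Col1a1, and of 5 adipocyte markers, with 0.734, 5.68 and 0.141 FPKM, led by Fabp4. Of the fibroblast list 4 of 6 were highest in tumor 2, but Dcn and Lum were highest in tumor 1, Dcn with 5.04 FPKM against 3.27 in tumor 2. Pdgfra and Lum, of the fibroblast list, had no read in tumor 3, nor had Adipoq, Plin1, Lep and Cidec of the adipocyte list, and Lep had none in tumor 1. The sums of these 3 lists were thus highest in the tumor that was also highest for most glycolysis genes, and their part in the glycolysis values was not tested.

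The sums of other lists differed in other ways. Of the 11191 genes with a mean of at least 1 FPKM, 5667, 3768 and 1756 were highest in tumors 1, 2 and 3. Of the same genes 4284 were lowest in tumor 2. Some listed markers do not reach that mean. The 8 macrophage markers, led by Lyz2, summed to 432, 147 and 36.3 FPKM in tumors 1, 2 and 3, and 7 of them were highest in tumor 1. Cd68 went the other way and was highest in tumor 2, with 19.6, 51.2 and 9.27 FPKM. The 7 erythroid markers, led by Hba-a1, summed to 202, 38.4 and 4.77 FPKM, with no read of Slc4a1 in tumors 2 and 3. The 7 neutrophil markers, led by S100a9, summed to 37.4, 1.51 and 16.1 FPKM, with no read of Elane in any tumor and none of Ly6g and Mpo in tumors 2 and 3. The 6 B-cell markers, led by Cd79a, summed to 58.0, 14.1 and 107 FPKM and were all lowest in tumor 2. The 5 endothelial markers, led by Pecam1, summed to 13.6, 12.9 and 5.16 FPKM. The 8 proliferation genes, led by Pcna, summed to 226, 144 and 119 FPKM, with 7 of them highest in tumor 1. The 10 T-cell markers summed to 1325, 1069 and 1421 FPKM, a sum in which Cd8b1 weighs most, while single markers peaked most often in tumor 2 (5 of the 10), then in tumor 3 (3 of 10) and tumor 1 (2 of 10). The part of these lists in the glycolysis values was not tested either. The 8 skeletal muscle markers, led by Tnnt3, summed to only 1.70, 1.62 and 0.960 FPKM. Each was under 1 FPKM in every tumor, and Ckm was highest in tumor 2, with 0.0559, 0.452 and 0.0331 FPKM from 5, 25 and 2 reads. There was no read of Myh1 and Myh2 in any tumor, of Myh4 in tumors 1 and 3 and of Acta1 in tumor 3.

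**Figure D5:**
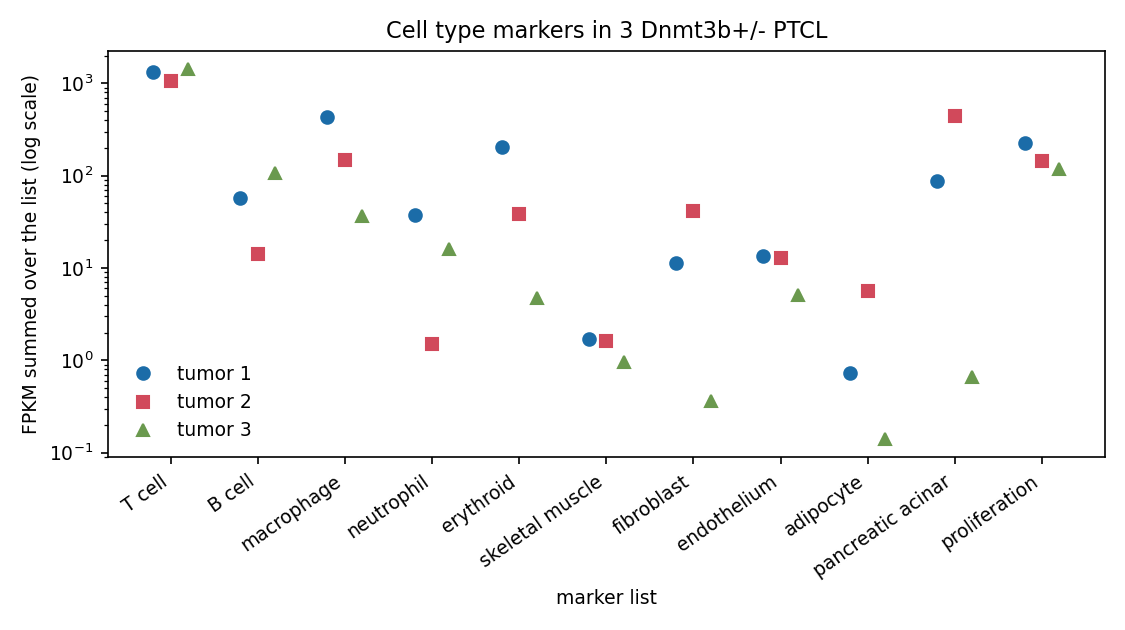
FPKM summed over each of 11 lists of cell type or proliferation markers (log axis), with a symbol for each of the 3 tumors. Pancreatic acinar markers reach 440.3 FPKM in tumor 2 and 0.657 in tumor 3, and T-cell markers lie between 1069 and 1421 FPKM.

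The genes whose pattern over the 3 tumors came closest to the median of the 10 were sought among 3425 other genes with a mean of at least 10 FPKM. The measure was the Euclidean distance of log2 FPKM centred over the tumors, and the median pattern ran -0.13, 0.44 and -0.31 over tumors 1, 2 and 3. The nearest were Atxn2l, with a distance of 0.0174, Tgfb1 with 0.0188, Gsdmd with 0.0405, Slc25a39 with 0.0471 and Hmgn2 with 0.0482. Within a distance of 0.25 lay 194 of the 3425 genes, and of the 10 glycolysis genes Pkm, at 0.102, and Slc2a1, at 0.113. With 3 tumors many genes share such a pattern, and 34 genes were nearer to it than Pkm.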

How the data were processed

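RNA-seq of 3 Dnmt3b+/- PTCL was analysed. The authors deposited FPKM on a linear scale, made with STAR (mm10) and SeqMonk from reads above a mapping quality limit and counted over merged exons. The authors' fold changes were not used. The 3 samples of whole-genome bisulfite sequencing, and control libraries and tumors of other genotypes, were not analysed here.

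Of 34245 genes, 26 symbols had turned into dates and were replaced through their Ensembl identifier where the annotation has one, and the highest value of a repeated symbol was kept, which left 34199. The commonest product of FPKM and exon length in a library was set to 0.9 read, the value held by genes without a read. From it came the depth and, with GENCODE M21 exon lengths (known for 99.6% of the genes), the reads of each gene, which were whole for 9 of the 10 members and for a share of all genes of 92.3%, 92.3% and 92.4% (tumors 1 to 3). Whole means within 0.02 read or a share of 2e-06. Among the other glycolysis enzymes listed, reads were not whole for Pfkm, Pgk2, Pgam1 and Eno1b. Floors for genes without a read are those of 3 reads. With 1 group no test was made. The background was the 11191 genes with a mean of at least 1 FPKM. Isozyme shares set genes without a read to 0.

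The members and lists were chosen with earlier results of these data known. Named were all members, isozymes of their steps, Gpi1, Tpi1, Gapdh, Pgam1, the 2 highest genes of each other pathway list, Hif1a, Myc, the highest gene and the markers at 0 of each marker list, and the 5 genes nearest to the members' pattern. Slc16a3, Slc2a2, G6pc, Fbp1, Fbp2, Cd68, Dcn and Ckm fall outside this rule and were chosen after their values were seen. Alternatives were a common sum, median-of-ratios factors, repeated symbols summed, no limit or a limit of 10 FPKM on low values, a pseudocount of 1, a fold of 2, a spread of 3, Eno1 with Eno1b, reads not divided by length and each tumor left out. Principal transcript lengths were added after seeing the data. The steps were tested on simulated data. The software was matplotlib 3.10.9, SciPy 1.17.1, NumPy 2.4.6 and pandas 2.3.3 under Python 3.11.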

Additional observations from a re-analysis of the deposited data

How the results depend on the processing

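The median of the 10 genes, 31.5 FPKM, was 152 when each tumor was rescaled to a common sum, which multiplies all levels, and 80.4 with principal transcript lengths. It lay between 26.0 and 35.9 when each tumor was left out. At a fold of 2 in place of 1.5, tumor 2 was above tumor 1 for 3 genes (10.1% of all genes) and above tumor 3 for 3 (11.3%), tumor 1 was above tumor 3 for 1 (13.3%), and tumor 3 above tumor 1 for 0 (4.45%). Pgk1, with tumor 2 at 2.00 times tumor 1 after rounding, lay just under this fold. Restricted to a mean of at least 10 FPKM, which leaves 7 of the 10 genes, tumor 2 was above tumor 3 for 3 (16.3% of all genes), tumor 1 above tumor 3 for 0 (16.8%), and the ratio of highest to lowest reached 2 for 2 genes (27.7%). Tumor 1 was above tumor 3 for 1 gene with median-of-ratios factors (18.9% of all genes) and for 1 with a pseudocount of 1 (19.7%). Tumor 3 was above tumor 1 for 0 genes after rescaling to a common sum (5.87% of all genes). A ratio of highest to lowest of at least 3 was reached by 2 genes (16.5% of all genes). Leaving out each tumor gave between 1 and 3 genes at a ratio of at least 2 (16.4%, 17.7% and 25.3% of all genes without tumors 1, 2 and 3) and a median ratio between 1.40 and 1.61, as fewer tumors give a smaller range. Without tumor 2 the count was 1, the gene being Hk2. Isozyme shares moved with the length used. From reads not divided by length, the share was 35.6% for Slc2a1, 45.6% for Slc2a3, 86.8% for Hk1, 17.1% for Pfkl and 93.5% for Eno1. With principal transcript lengths it was 37.6%, 39.7%, 87.3%, 18.2% and 92.1% in the same order, and with Eno1b added Eno1 had 89.1%. Smaller shares differed by over 1.5 times for Hk2, with 4.56% by principal lengths, which is within 1 SD over the tumors, and for Hk3 with 6.79%, Pfkm with 4.70% and Eno3 with 5.66% of reads. With no limit on low values, 62.8% of all genes were highest in tumor 2 and 55.8% had tumor 2 at least 1.5 times tumor 1, as against 33.7% and 18.7%, since genes without a read hold a value that is larger in the library with fewer reads. Of the alternative values of the main results, 82 stayed within their limits (1 SD over the tumors for a share or median level, 1.5 times for a count, 0.05 of the value for a median ratio) and 28 moved, while of those of single genes and of all genes 55 stayed and 62 moved. Where the construction does not show it, the cause was not tested. No paired analysis was possible because the results come from no test and only 1 group of RNA-seq tumors was analysed. Precision is limited by 3 tumors, by the 58 reads of Hk2 in tumor 3 and by repeated sequence in Pgk1, Pgam1, Eno1b and, less, Gapdh and Eno1.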
